A study of Rattus norvegicus with 17 samples.

Results

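Bdnf, Ntrk2 and Ngfr encode a neurotrophin and a pair of its receptors, and they were followed here in the hippocampus of rats given Enzastaurin (ENZ), an inhibitor of protein kinase C beta, during water maze testing. They are 3 of the 26402 genes in the deposited table of normalized counts, which lists genes by Ensembl identifier, and they were chosen by identifier: ENSRNOG00000047466 for Bdnf, ENSRNOG00000018839 for Ntrk2 and ENSRNOG00000005392 for Ngfr. The table holds no gene names, so the pairing of these identifiers with symbols was taken as given with the selection and was not checked against an annotation. RNA came from the left CA1/CA2 of male Fischer-344 rats (written Fisher-344 in the sample labels), all aged 12 months. The ENZ group (7 rats) had received 25 mg/kg of ENZ under the skin each day for 3 days, suspended in polyethylene glycol, and the vehicle group (10 rats) had received polyethylene glycol alone. Both groups were trained in the maze and were killed right after the last trial, so no rat was untrained, and females were not studied. Because genes have no names in the table, markers of the dissected region could not be checked.

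Neurotrophins are secreted proteins that keep neurons alive and adjust their synapses. Bdnf encodes brain-derived neurotrophic factor, which excitatory neurons of the hippocampus make and release with activity, and which is required for lasting strengthening of their synapses. Ntrk2 encodes TrkB, the receptor tyrosine kinase that binds it with high affinity. The Ntrk2 gene also gives a truncated receptor without the kinase domain, which astrocytes make in abundance, and a count per gene adds both forms. Ngfr encodes a receptor that binds all neurotrophins with low affinity and that also binds their uncleaved precursors. In the adult forebrain it is best known from cholinergic neurons of the basal forebrain, whose axons reach the hippocampus while their cell bodies lie outside it.

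Depth set what could be seen of each gene. Vehicle rat G1_80 had 33422 reads on genes, and the other 16 rats had between 2716777 and 20731523. One read of that rat stood for 103.4 normalized counts. Comparisons are therefore given for the 16 rats without it (9 vehicle, 7 ENZ), and again for all 17 rats. Nothing in the labels ties the rats to a litter, maze squad or sequencing run. Each rat is 1 animal and 1 library, and in tissue of mixed cells a lower count can come from fewer cells of a type or from less RNA per cell, which cannot be told apart.

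Transcription of Bdnf begins at several starts along the gene, each followed by its own first exon, and some of these starts respond to calcium and neuronal activity through the cyclic AMP response element. The reference set of promoter windows used here holds 6 for Bdnf in rat assembly GRCr8, where RefSeq lists 11 Bdnf transcripts. The windows of starts 5 and 6 overlap, so the 6 are not all separate stretches. The 250 bases before each start were searched on both strands for the full element TGACGTCA, for a variant TCACGTCA and for its short core CGTCA, which lies within each of the longer motifs. The full element was in 0 of the 6 windows and in 1.59% of the 33469 windows of all genes. The variant was in 1 of the 6, start number 4 along the gene, where it begins 38 bases before the start, and in 0.35% of all windows. No other variant was searched, so its presence there is a description, and enrichment of these motifs at Bdnf was not tested. The short core was in the same single window of Bdnf and in 18.2% of all windows. That window is shown here because the deposited count adds the reads of all starts, so activity of any single start is hidden in it. It lies at chr3:116637608-116637857 on the plus strand of GRCr8, ends at the base before the start, and has the variant in capitals. The counts themselves were made on the rn5 build.
Bdnf, start 4: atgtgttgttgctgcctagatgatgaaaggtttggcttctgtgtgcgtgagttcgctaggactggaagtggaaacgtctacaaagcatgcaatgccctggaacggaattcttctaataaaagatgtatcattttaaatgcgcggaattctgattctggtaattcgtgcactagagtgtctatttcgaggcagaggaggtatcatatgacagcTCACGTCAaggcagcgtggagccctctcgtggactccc

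Bdnf was 0.881-fold in ENZ relative to vehicle over the 16 rats, a difference smaller than the spread among rats. In the vehicle group it ranged from 105.5 normalized counts in rat G1_89 through a median of 146.0 to 199.9 in rat G1_18. In the ENZ group it ranged from 84.9 in rat G2_62 through a median of 144.0 to 185.2 in rat G2_152. The groups overlapped over most of their range and their medians were almost equal. ENZ rats G2_62 and G2_71 (89.3) were below every vehicle rat, while 2 of the 7 ENZ rats were above the vehicle median. The ENZ mean was 131.6 ± 35.1 (SD, n = 7), beside 147.6 ± 31.4 (SD, n = 9) for vehicle. The log2 fold change was -0.18 with a standard error of 0.16 (adjusted p = 0.99979 by limma over 13853 genes), and p was 0.322 by two-sided exact permutation of the 11440 splits of the rats. The 95% interval of the limma fit ran from 0.699-fold to 1.11-fold and so holds both lower and higher levels in ENZ. The log2 fold change went from -0.18 to -0.086 without rat G2_62 and to -0.098 without rat G2_71.

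**Figure D1:**
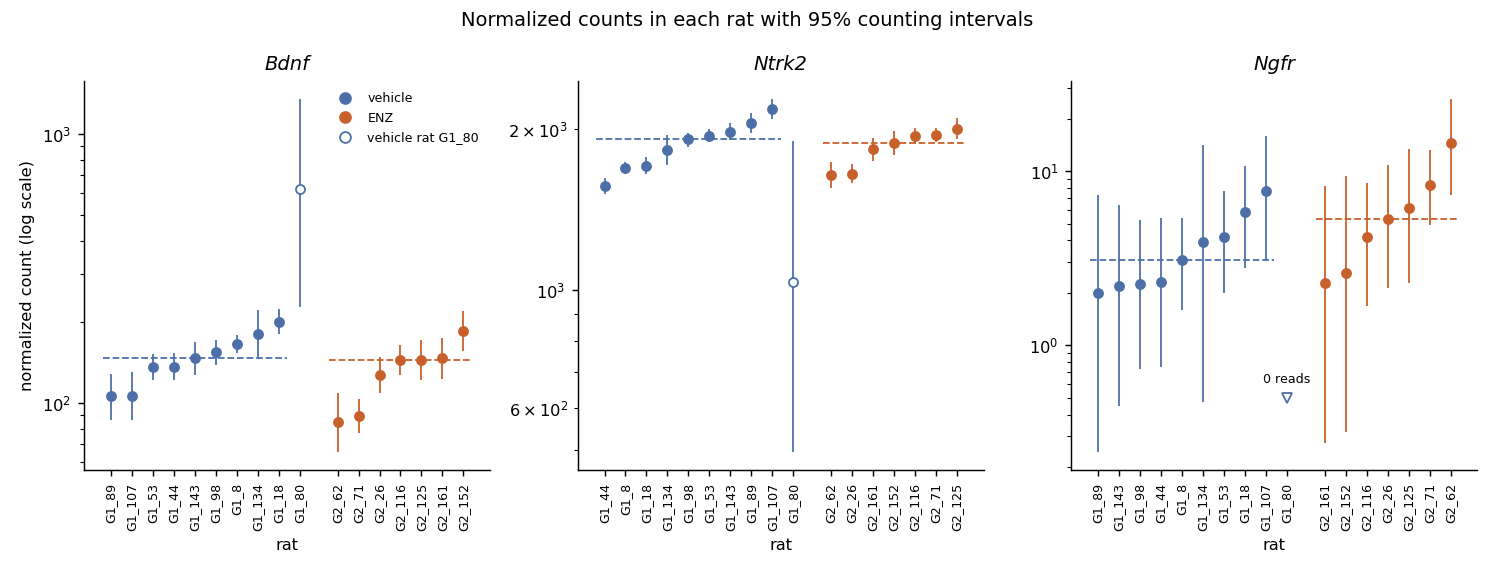
Normalized counts (log axis) of Bdnf, Ntrk2 and Ngfr in each rat, with vehicle in blue and ENZ in orange, ordered by value within a group; bars are exact 95% Poisson intervals from the reads and dashed lines are group medians without rat G1_80. Rat G1_80 is drawn open, at 620.1 for Bdnf and 1034 for Ntrk2, and its triangle for Ngfr marks 0 reads at an arbitrary height; in the other 16 rats the groups overlap for each gene.

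With rat G1_80 the Bdnf comparison rested on a very small number of reads. That rat had 6 Bdnf reads, which is 620.1 normalized counts with a 95% Poisson interval of 227.6 to 1350. The lower end is above the highest of the other 16 rats. As a share of its own reads, Bdnf was at 179.5 CPM (reads scaled to a common total per library) in rat G1_80 and between 16.5 and 39.4 CPM in the others. Over all 17 rats the log2 fold change was -0.39 with a standard error of 0.29 (adjusted p = 0.786 by limma over 13844 genes; p = 0.228 by two-sided exact permutation of 19448 splits). Count models moved less, with -0.20 by edgeR and -0.23 by DESeq2 over the same 17 rats. On this set all genes together had a median log2 fold change of 0.16, against -0.0043 over the 16 rats.

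Ntrk2 was the steadiest of the 3 genes and lay at nearly the same level in both groups, 0.986-fold in ENZ relative to vehicle. In the vehicle group the lowest value was 1565 normalized counts in rat G1_44, the median 1912 and the highest 2181 in rat G1_107. In the ENZ group the lowest was 1640 in rat G2_62, the median 1886 and the highest 2003 in rat G2_125. All ENZ rats fell within the range of the vehicle rats. The ENZ mean was 1843 ± 145.8 (SD, n = 7), beside 1873 ± 194.3 (SD, n = 9) for vehicle, each rat having at least 936 Ntrk2 reads. The log2 fold change was -0.020 with a standard error of 0.068 (adjusted p = 0.99979 by limma; two-sided exact permutation test, p = 0.773). The 95% interval ran from 0.894-fold to 1.09-fold, the narrowest of the 3 genes. A shift between the full-length and the truncated receptor with an unchanged sum could not be seen in a count per gene. In rat G1_80 Ntrk2 had 10 reads, or 1034 normalized counts with an interval of 495.6 to 1901. In CPM that rat was at 299.2, close to the lowest of the other rats, 303.1 in rat G1_44. With rat G1_80 the limma direction turned, to a log2 fold change of 0.065 with a standard error of 0.12 (adjusted p = 0.801 by limma; two-sided exact permutation test, p = 0.698). It did not turn in the count models over the same 17 rats, which gave -0.0042 by edgeR and -0.0093 by DESeq2. The limma value of Ntrk2 with rat G1_80, 0.065, lay below 0.16, the median for the genes tested in that fit.

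Ngfr was barely detected, with 2 to 18 reads in each of the 16 rats and 109 reads in all. It ranged in the vehicle group from 2.01 normalized counts in rat G1_89 through a median of 3.07 to 7.73 in rat G1_107. In the ENZ group it ranged from 2.27 in rat G2_161 through a median of 5.30 to 14.6 in rat G2_62. The highest values were those of ENZ rats G2_62 (11 reads) and G2_71 (18 reads, 8.33 normalized counts), which were above every vehicle rat, and the other 5 ENZ rats lay among the vehicle rats. The counting interval of rat G2_62 alone was 7.29 to 26.1 normalized counts. In 3 vehicle rats and 2 ENZ rats Ngfr had no more than 3 reads.

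The median Ngfr count over the 16 rats, 4.04, was below the minimum of 5 set for the test across genes, so Ngfr was compared in a fit without that minimum, over 20796 genes. Its ENZ mean was 6.21 ± 4.25 (SD, n = 7), beside 3.72 ± 1.96 (SD, n = 9) for vehicle. The log2 fold change of normalized count + 1 was 0.52 with a standard error of 0.32 (adjusted p = 0.99854 by limma; two-sided exact permutation test, p = 0.140), with a 95% interval from 0.898-fold to 2.28-fold. The added 1 lessens the change of a gene this low. On the recovered reads edgeR gave a log2 fold change of 0.78 (unadjusted p = 0.0454, adjusted p = 0.99996) and DESeq2 gave 0.79 (unadjusted p = 0.0536, adjusted p = 0.99985). Added over rats, 56 reads in vehicle were 0.657 CPM (95% Poisson interval 0.496 to 0.853) and 53 reads in ENZ were 1.16 CPM (0.872 to 1.52), intervals that cover counting error and not the spread among rats. Single rats moved the limma value in both directions, to 0.30 without rat G2_62 (unadjusted p = 0.318) and to 0.68 without rat G2_161 (unadjusted p = 0.0487), with adjusted p-values by limma of 0.99500 and 0.99647. Over all 17 rats the unadjusted p was 0.0411 by edgeR and 0.324 by DESeq2. Rat G1_80 had 0 Ngfr reads, which allows up to 310.1 normalized counts taken as 3 reads and 381.3 as the upper end of the exact Poisson interval, and with it the log2 fold change was 0.73 with a standard error of 0.41 (adjusted p = 0.812 by limma; two-sided exact permutation test, p = 0.0899).

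By limma, 0 of the 3 genes passed an adjusted p of 0.05, where the background was 0% of the 13853 genes (0 also by edgeR and by DESeq2). At an unadjusted p-value under 0.05 limma called 0 of the 3 over the 16 rats. It called Ngfr once rat G2_161 was left out, beside 582 of the 20754 genes in that fit. The background at that threshold over the 16 rats was 2.34% of genes with the minimum (324 genes) and 3.01% without it. The edgeR call of Ngfr stands beside 3.28% of 20796 genes at the same threshold, and its edgeR call over all 17 rats beside 615 of 20910 genes. With all 17 rats limma again called 0 of the 3, beside 0% after adjustment, and before it 0.274% of genes with the minimum and 1.17% without it. The median log2 fold change of the 3 genes, -0.020, was that of Ntrk2, and that of all genes was -0.0043.

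**Figure D2:**
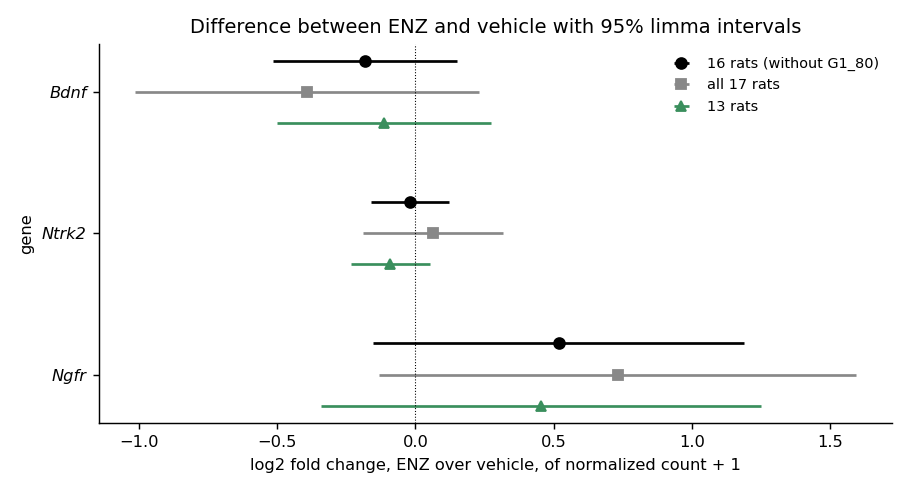
Log2 fold change of ENZ over vehicle (x axis, on normalized count + 1) for each gene (y axis) with 95% limma intervals, for the 16 rats (circles), all 17 rats (squares) and 13 rats (triangles). Each interval crosses 0, Ntrk2 has the narrowest, and its point moves from -0.020 to 0.065 when rat G1_80 is included.

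Ratios of normalized count + 1 within a rat were compared next, which depend on the scaling of a library only through the added 1. For both ratios with Ngfr that number mattered. The difference below for Bdnf to Ngfr was -0.80 with 0.1 added and -0.49 with 5 added. That for Ngfr to Ntrk2 was 0.64 with 0.1 added and 0.33 with 5 added. The log2 ratio of Ngfr to Ntrk2 was higher by 0.54 in ENZ (two-sided exact permutation test, p = 0.136, 0.212 after adjustment over the 3 ratios), from -8.72 ± 0.53 (SD, n = 9) to -8.19 ± 0.83 (SD, n = 7). The log2 ratio of Bdnf to Ngfr was lower by 0.70 (a difference of -0.70; exact permutation p = 0.141, adjusted 0.212), with an ENZ mean of 4.34 ± 1.16 (SD, n = 7) beside 5.04 ± 0.60 (SD, n = 9) for vehicle. That of Bdnf to Ntrk2 differed by -0.16 (exact permutation p = 0.430, adjusted 0.430). Without rat G2_62 the differences were 0.29 for Ngfr to Ntrk2 and -0.39 for Bdnf to Ngfr, and without rat G2_71 that of Bdnf to Ntrk2 was -0.064. With rat G1_80 they were 0.67, -1.12 and -0.46 in the order first given (exact permutation tests, adjusted p = 0.156, 0.156 and 0.310). In each ratio the groups of the 16 rats overlapped. Rats G2_62 and G2_71 were outside the vehicle range for both ratios with Ngfr, and rat G2_152 was above it for that of Bdnf to Ngfr. Rat G2_71 was also below the vehicle range for Bdnf to Ntrk2, at -4.43 against a lowest vehicle value of -4.35.

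The 3 genes differed in how far rats lay from each other. The coefficient of variation of Bdnf was 21.3% in vehicle and 26.7% in ENZ, where the reads alone would give 7.24% and 8.58%. Over the 16 rats it was 23.5%, higher than in 76.0% of the 13853 genes tested, whose median was 13.8%. Ntrk2 varied by 10.4% in vehicle and 7.91% in ENZ, against 2.05% and 2.25% from counting. Its coefficient over the 16 rats, 9.13%, was higher than in 22.5% of genes. Ngfr varied by 52.6% in vehicle, not far above the 47.3% that its reads alone would give, and by 68.4% in ENZ, where counting would give 39.5%. With rat G1_80 the vehicle values were 78.2% for Bdnf, 18.03% for Ntrk2 and 65.4% for Ngfr, where counting would give 41.4%, 6.13% and 49.8%. The dispersions fitted by edgeR, which set counting aside, correspond to 20.5% for Bdnf beside 13.7% for genes of like abundance, and to 10.4% for Ntrk2 beside 13.4%. In the fit without the minimum they were 33.7% for Ngfr and 35.0% for genes of its abundance. The fit draws each dispersion toward that of genes of like abundance, so a likeness to them is partly built in.

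Whether ENZ changed the spread itself was tested on the distances of log2 values from the group median. The distances were permuted over all splits of the rats with the medians held fixed, so the p-values here are approximate. The mean distance of Bdnf was 0.29 in ENZ and 0.24 in vehicle (two-sided exact permutation test, p = 0.697). For Ntrk2 it was 0.088 and 0.12 (exact permutation p = 0.511), and for Ngfr 0.59 and 0.43 (exact permutation p = 0.438). After adjustment over the 3 genes each value was 0.697. With rat G1_80 each adjusted value was 0.986.

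**Figure D3:**
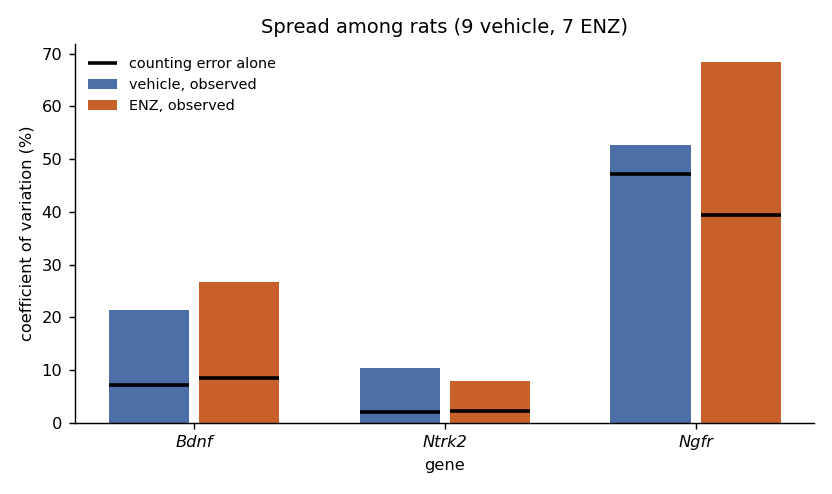
Coefficient of variation of normalized counts (y axis, percent) for each gene in 9 vehicle rats (blue bars) and 7 ENZ rats (orange bars), with black lines at the value that counting error alone would give. The bars of Bdnf and Ntrk2 stand well above their lines in each group, and Ngfr in vehicle (52.6%) is close to it (47.3%).

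Bdnf and Ngfr tended to lie on opposite sides in the same rat. Over the 16 rats, log2 values gave Pearson r = -0.53 (permutation p = 0.0323, 0.0970 after adjustment over 3 pairs) and Spearman rho = -0.37 (permutation p = 0.154, adjusted 0.462). The relation rested on ENZ rats G2_62 and G2_71, the lowest in Bdnf and the highest in Ngfr, and without them r was -0.070 (n = 14, permutation p = 0.812). Within the 7 ENZ rats r was -0.88 (exact permutation p = 0.0123, 0.0738 after adjustment over 6 correlations within groups). Within the 9 vehicle rats it was 0.074 (exact permutation p = 0.852, adjusted 0.852). Whether the groups differ in this relation was not tested, and the Ngfr values behind it come from 2 to 18 reads.

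**Figure D4:**
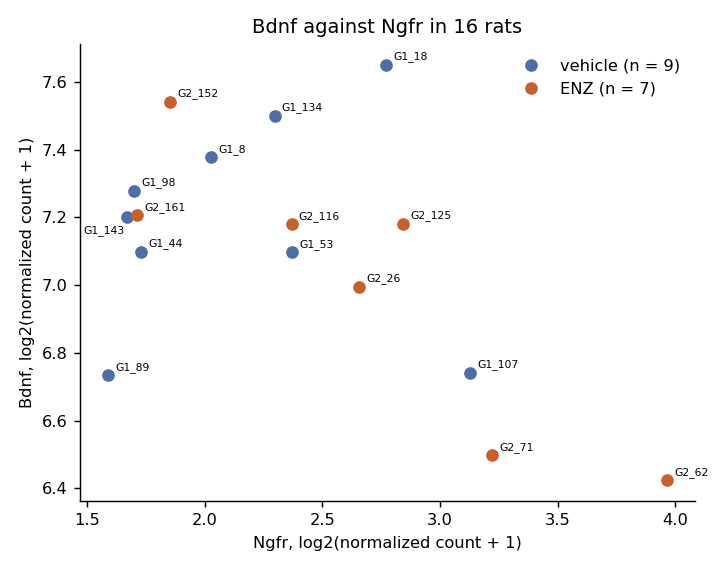
Bdnf (y axis) against Ngfr (x axis) in the 16 rats, both as log2(normalized count + 1), with vehicle in blue and ENZ in orange. ENZ rats G2_62 and G2_71 are at the lower right, and without them Pearson r is -0.070.

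Over the 16 rats no relation of Bdnf to its receptor Ntrk2 passed the test, with r = -0.16 (permutation p = 0.552, adjusted 0.810) and rho = -0.22 (permutation p = 0.404, adjusted 0.606). Without rats G2_62 and G2_71, the farthest from the Bdnf median, r was -0.43 (n = 14, permutation p = 0.131). It was -0.62 within the 9 vehicle rats (exact permutation p = 0.0724, adjusted 0.217) and 0.38 within the 7 ENZ rats (exact permutation p = 0.413, adjusted 0.660). The receptors Ntrk2 and Ngfr gave r = -0.065 (permutation p = 0.810, adjusted 0.810) and rho = -0.059 (permutation p = 0.831, adjusted 0.831), and r was 0.079 (n = 14, permutation p = 0.787) without the rats farthest from the Ntrk2 median, G1_44 and G2_62. Within groups it was 0.22 in the 9 vehicle rats (exact permutation p = 0.573, adjusted 0.687) and -0.35 in the 7 ENZ rats (exact permutation p = 0.440, adjusted 0.660). With rat G1_80 the Pearson correlation passed in each pair (permutation tests, adjusted p = 0.0252 for Bdnf with Ntrk2, 0.00321 for Bdnf with Ngfr and 0.0492 for Ntrk2 with Ngfr), and the Spearman correlation passed in none of the 3 (adjusted permutation p = 0.249, 0.163 and 0.652). Over the 16 rats no relation to depth passed in any of the 3 genes, with r between -0.20 and 0.070 to the log10 of reads (adjusted permutation p of at least 0.702 over these 3 correlations).

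The genes whose log2 values over the 16 rats were most like those of each member are given by identifier, since the table pairs none with a name. For Bdnf this was ENSRNOG00000050949 (r = 0.92, 128.7 to 231.4 normalized counts), and 86 genes had r above 0.8. For Ntrk2 it was ENSRNOG00000006893 (r = 0.88, 146.2 to 223.1 normalized counts), with 13 genes above 0.8. For Ngfr it was ENSRNOG00000016725 (r = 0.81, 482.1 to 588.4 normalized counts), 1 gene in all above 0.8. Each is the highest of at least 13852 correlations on the same libraries and is a description.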

How the data were processed

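RNA of the CA1/CA2 region was sequenced by the authors from TruSeq libraries as paired 100 bp reads, and 17 rats have samples here. They trimmed adapters with AlienTrimmer 0.3.2, aligned reads to rn5 with STAR 2.4.0a and counted them per gene with featureCounts 1.4.4; neither the strand setting nor the annotation is given in the sources used here. The deposited values are a signal that is never negative, namely counts of reads that were each divided by a size factor of the rat (DESeq2, per the labels). Whole reads were recovered from the value of 1 read in each rat, and 100% of values above 0 were whole within 0.05 reads in every rat. Without strand, reads of overlapping genes cannot be told apart.

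Log2(normalized count + 1) was fitted here with limma's trend option (3.58.1, R 4.3.3) for ENZ against vehicle, on genes whose median reached 5, with Benjamini-Hochberg adjustment and no covariates. Rat G1_80 was left out for its depth. The paper states that outlying samples were removed by principal components analysis before its own DESeq2 comparison, with 7 rats per group. Which rats those were is not given there, and the main set here holds 9 vehicle rats. Ngfr fell below the minimum, so its limma values are from a fit of all genes with a read. Single values were compared by exact permutation tests, and correlations over 14 or more rats with 100000 permutations (Python 3.11.15, numpy 2.4.6, scipy 1.17.1). Tests were checked on simulated data. Alternatives were other pseudocounts, minimums, scalings, array weights, edgeR (4.0.16) and DESeq2 (1.42.0) on recovered reads, sets of 17 and 13 rats and leaving out each rat; the 13 rats, an earlier choice on these data, also lack vehicle rats G1_134, G1_44 and G1_8. Both count tools over all 17 rats, and correlations over 17, were added after seeing the data. The members and lists were chosen with earlier results of these data known. The named genes were the 3 members and the gene most correlated with each. Lists of neurotrophin pathway genes and cell type markers were not analysed here, because 0 rows of the gene table used (GRCr8) carry an Ensembl identifier. Poisson intervals cover counting error only.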

Additional observations from a re-analysis of the deposited data

Results flagged for a closer look

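Among 15 groups of values checked for a rat far from the others (the 3 genes in 10 and in 9 vehicle rats and in 7 ENZ rats, and the 3 ratios in 9 vehicle and 7 ENZ rats), 2 had one. The limit used is passed by chance in about 1 in 20 groups of normally distributed values. The groups here share rats and values, so the 2 flags were not weighed against that rate. Bdnf in vehicle rat G1_80 was at 620.1 normalized counts from 6 reads, far above the other 9 vehicle rats, whose highest was 199.9. The log2 ratio of Bdnf to Ngfr, taken on normalized count + 1, was 3.62 in vehicle rat G1_107, below the other 8 vehicle rats, with 96 Bdnf reads and 7 Ngfr reads behind it. No explanation of either was tested.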

How the results depend on the processing

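No paired analysis was possible because the groups share no rat number in the labels. The log2 fold change of Bdnf stayed negative and that of Ngfr positive under every alternative run (-0.39 to -0.086 and 0.30 to 0.79), with adjusted p-values of at least 0.786 and 0.812; a minimum of 50 left no Ngfr value. Ntrk2, at -0.020, was at 0.065 with all 17 rats by limma (below 0 there by edgeR and DESeq2). It was farthest below 0 with 13 rats, at -0.090 (limma, unadjusted p = 0.199). Leaving out single rats gave -0.052 to 0.0083 for Ntrk2, above 0 without rats G1_107, G2_26 or G2_62. Adjusted p-values of Ntrk2 were at least 0.801 under every alternative (limma, edgeR or DESeq2). The count at an unadjusted p under 0.05 was 324, and it was 38 with all 17 rats (56 with DESeq2, 270 with edgeR), 625 with no minimum and 201 with a minimum of 50; the last 2 differ in how many genes were tested, and for the others the cause was not tested. Of these calls 46.9% were higher in ENZ, and with CPM 24.1%. The adjusted count was 0 under each; in fits with no minimum made for Ngfr it was 1 without rat G1_134 and 5 with DESeq2 on all 17 rats, with 0 of the 3 genes among them. The differences in ratio kept their sign under each alternative, with values of -0.023 (13 rats) to -0.46 (17 rats) for Bdnf to Ntrk2, -0.39 (without rat G2_62) to -1.12 (17 rats) for Bdnf to Ngfr, and 0.29 (without rat G2_62) to 0.69 (without rat G2_161) for Ngfr to Ntrk2. The difference in spread (ENZ minus vehicle) turned for Bdnf, at 0.050, to -0.13 with all 17 rats and ranged from -0.028 to 0.098 when single rats were left out, turned for Ntrk2 (-0.030) to 0.0079 with 13 rats, and for Ngfr (0.15) to -0.0049 with all 17; the cause was not tested. The correlation of Bdnf with Ngfr ranged from -0.68 to -0.32 when single rats were left out (permutation tests, adjusted p = 0.0172 without rat G1_89, 0.0212 without rat G1_18 and 0.360 without rat G2_62). With all 17 rats, where each Pearson correlation passed its test and no Spearman correlation did, it was -0.77, that of Bdnf with Ntrk2 was -0.75 (-0.16 without rat G1_80), and that of Ntrk2 with Ngfr was 0.53 (-0.065 without it). The last was -0.30 with 13 rats and 0.038 with CPM, and ranged from -0.24 to 0.21 when single rats were left out. At the depth of rat G1_80, 3 reads amount to 310.1 normalized counts, the limit used there for a gene with 0 reads.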
